A study of Mus musculus with 6 samples.

Results

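The cell division cycle of a T cell starts with a small set of cyclins, cyclin-dependent kinases (CDKs) and CDK inhibitors that gate the passage from G1 into S phase. Of this set, 10 genes were taken by name, apart from Cdkn1a: the D cyclins Ccnd2 and Ccnd3, their kinases Cdk4 and Cdk6, the E cyclins Ccne1 and Ccne2, their kinase Cdk2, the inhibitors Cdkn1b (p27) and Cdkn2c (p18), and the transcription factor E2f1. All 10 were found among the 18122 rows of the deposited table, each with 1 row and with a value above 0 in all 6 libraries. RNA was sequenced in bulk from lymph node CD8+ T cells of Dusp2-/- mice, which lack a MAP kinase phosphatase, and of WT mice. Per the labels, cells of both genotypes spent 18 h on plates coated with anti-CD3 (1 µg/mL), with IL-4 at 20 ng/mL, IFN-α at 50 ng/mL and anti-CD28 at 1 µg/mL, a culture meant to give virtual memory T cells. A sort on the surface protein CD44 then separated cells with very much of it (CD44hi) from cells with little (CD44lo). The groups were Dusp2-/- CD44hi with 2 libraries, WT CD44hi with 2, Dusp2-/- CD44lo with 1 and WT CD44lo with 1. Every group was stimulated, so no unstimulated reference was part of these comparisons. The sources used here do not state age, sex, strain background or the construction of the Dusp2 allele. The labels do not say whether the libraries of a group came from separate mice or cultures, so p-values measure the spread between these libraries, which may be technical.

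In textbook outline, signals from the antigen receptor, costimulation and cytokines raise the D cyclins, which bind CDK4 and CDK6 and begin to phosphorylate the retinoblastoma family of pocket proteins. This releases E2F factors such as E2F1, which drive the E cyclins, and cyclin E with CDK2 completes the phosphorylation. The INK4 inhibitors, p18 among them, bind CDK4 and CDK6, whereas p27 belongs to the CIP/KIP family and restrains cyclin E with CDK2. Resting T cells hold much p27 and little cyclin E, and p27 is removed after activation largely by degradation of the protein, which RNA does not show.

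The libraries matched their labels for the deleted gene and the sorted marker. Dusp2 was listed at 0 and 0.0283 FPKM (fragment counts divided by gene length in kilobases and by library size) in Dusp2-/- CD44hi cells and at 0 in Dusp2-/- CD44lo cells, against 82.6 and 83.9 FPKM in WT CD44hi cells and 116 FPKM in WT CD44lo cells. Cd44 ran from 65.3 to 79.9 FPKM in CD44hi libraries and from 1.33 to 1.43 FPKM in CD44lo libraries. Part of the label text names mice with a Cd4-Cre and floxed Rpa1 in place of Dusp2-/- mice, and Rpa1 stood at 41.3 and 41.4 FPKM in Dusp2-/- CD44hi cells, against 33.7 and 35.2 FPKM in WT CD44hi cells. Cd8a lay between 246 and 358 FPKM and Cd4 at or below 0.0228 FPKM in every library. All 3 CD4 T cell markers, both NK cell markers found in the table and both erythroid markers found stayed under 1 FPKM. Of 5 B cell markers 3 had a row, and their sum was 147 and 150.5 FPKM in Dusp2-/- CD44hi cells, against 123 and 141 FPKM in WT CD44hi cells, mostly from Ighm (110 to 140 FPKM), with Cd79a at 0.0727 to 0.379 FPKM. The 5 myeloid and dendritic markers found summed to 25.2 to 33.8 FPKM, nearly all from Cst3, with Lyz2, Itgam and S100a8 at or below 0.134 FPKM, and the 2 markers of stroma and endothelium to 5.21 to 14.4 FPKM, nearly all from Pecam1. Read totals recovered from the values were 23490008 in the Dusp2-/- CD44lo library and 42816073 to 55830235 in the other 5. Mitochondrial genes took 2.73% and 2.94% of reads in Dusp2-/- CD44hi cells, 2.15% and 2.03% in WT CD44hi cells, 3.80% in Dusp2-/- CD44lo cells and 2.56% in WT CD44lo cells.

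Promoter windows were not available for Ccnd2 and Ccne2, so neither was searched. For the other 8 members, 10 windows were read from RefSeq on GRCm38.p6. The windows ran from 250 bases before to 50 bases after the annotated start. They are shown for Cdk4 and Cdk6, the kinases of the D cyclins, of which Cdk6 was higher in Dusp2-/- CD44hi cells and Cdk4 did not pass the test, for Cdk2, and for Cdkn1b, the member that was lower in Dusp2-/- CD44hi cells. Each is printed 5′ to 3′ on the strand of the gene, with matches to the E-box CACGTG (read by MYC and related factors) or to 4 forms of the E2F motif (TTTCCCGC, TTTGGCGC, TTTCGCGC and TTTGCCGC) in capitals, on either strand. The windows lie at chr10:127063285-127063584 (plus strand) for Cdk4, chr5:3343643-3343942 (plus strand) for Cdk6, chr10:128705002-128705301 (minus strand) for Cdk2 and chr6:134920151-134920450 (plus strand) for Cdkn1b.
Cdk4: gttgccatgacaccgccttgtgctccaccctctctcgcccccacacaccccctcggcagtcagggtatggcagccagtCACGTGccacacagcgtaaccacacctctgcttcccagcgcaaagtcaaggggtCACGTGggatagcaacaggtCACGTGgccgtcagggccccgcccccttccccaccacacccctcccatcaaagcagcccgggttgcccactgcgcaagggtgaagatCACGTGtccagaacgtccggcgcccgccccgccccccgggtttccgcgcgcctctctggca
Cdk6: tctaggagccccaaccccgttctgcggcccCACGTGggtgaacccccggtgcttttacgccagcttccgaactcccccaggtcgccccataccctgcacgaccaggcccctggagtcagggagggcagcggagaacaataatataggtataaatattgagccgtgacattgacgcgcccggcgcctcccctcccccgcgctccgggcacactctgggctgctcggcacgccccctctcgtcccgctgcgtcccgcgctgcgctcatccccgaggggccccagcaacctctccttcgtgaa
Cdk2: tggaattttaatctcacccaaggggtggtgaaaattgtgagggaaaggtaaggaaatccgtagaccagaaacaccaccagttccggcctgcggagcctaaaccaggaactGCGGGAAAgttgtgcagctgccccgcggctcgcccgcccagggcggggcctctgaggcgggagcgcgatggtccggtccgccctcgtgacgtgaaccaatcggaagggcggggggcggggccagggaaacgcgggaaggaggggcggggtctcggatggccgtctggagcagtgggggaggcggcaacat
Cdkn1b: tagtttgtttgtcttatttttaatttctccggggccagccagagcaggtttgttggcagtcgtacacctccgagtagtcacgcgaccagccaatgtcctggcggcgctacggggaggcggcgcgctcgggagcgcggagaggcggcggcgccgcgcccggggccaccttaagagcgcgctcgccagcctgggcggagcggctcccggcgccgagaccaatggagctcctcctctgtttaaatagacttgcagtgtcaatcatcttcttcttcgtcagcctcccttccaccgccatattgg
The Cdk4 window held 4 E-boxes, at -172, -118, -98 and -11 from the start, and the Cdk6 window held 1, at -220. Cdkn2c also had 1 in its second window, at 34 bases after the annotated start. Of 32851 mouse promoters of the same length, 7.15% held at least 1 E-box and 8 promoters (0.024%) held 4 or more. Among the 10 windows searched, the E2F letters occurred in the Cdk2 window alone, at -140 on the opposite strand, and in 2.26% of all promoters. The FOXO letters TTGTTTAC, searched because FOXO factors act on Cdkn1b, were in none of the 10 windows and in 1.23% of all promoters. The E2f1 window lies wholly inside the gene, 216 bases past its outermost RefSeq start, and the Cdk6 window 2639 bases past it, so the search did not cover those starts. A match describes these letters in these windows and is not evidence of a bound factor.

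The members spanned a wide range of levels on the FPKM scale. That scale divides by gene length, so the order of genes depends on the lengths used. These come from an annotation that the sources used here do not state. Cdk4 was the most abundant of the 10, at 88.4 to 126 FPKM over the 6 libraries, and Ccnd2 came next, at 41.6 to 87.6 FPKM. Ccne1, E2f1, Cdk6, Ccnd3, Cdk2 and Cdkn1b lay between 4.98 and 26.9 FPKM. Ccne2 ran from 0.601 to 6.40 FPKM and Cdkn2c from 1.03 to 3.16 FPKM, which rested on 103 and 66 reads in the shallowest library. In bulk RNA, fewer cells of a type and less RNA per cell cannot be told apart, so a level here is a mean over all sorted cells of a library, whatever their cycle phase.

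**Figure D1:**
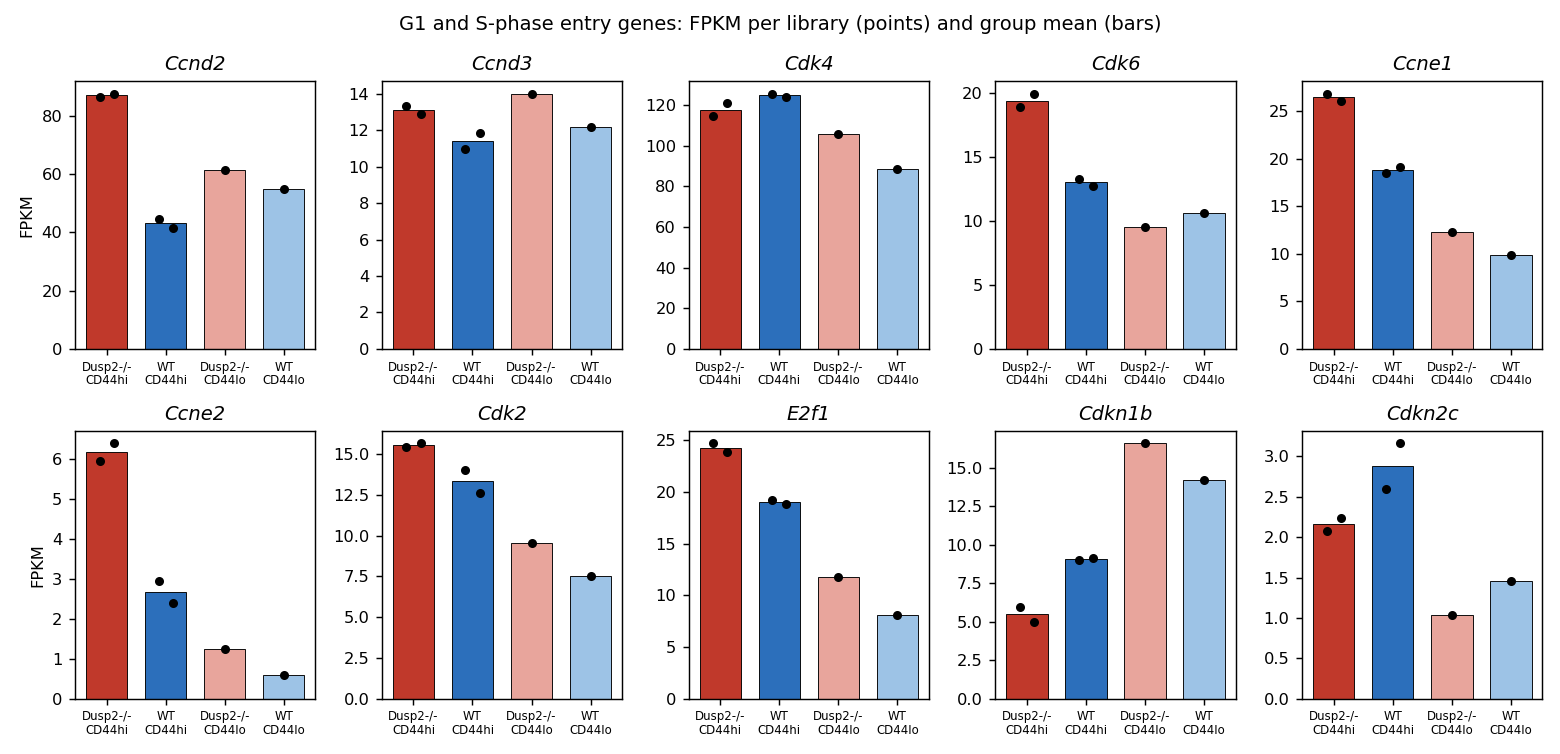
FPKM of each of the 10 genes (1 panel per gene, linear axis from 0), with points for the 6 libraries and bars for the group means, Dusp2-/- left of WT within CD44hi and within CD44lo. Ccnd2, Ccnd3, Cdk6, Ccne1, Ccne2, Cdk2 and E2f1 lie higher in both Dusp2-/- CD44hi libraries than in both WT CD44hi libraries. Cdk4, Cdkn1b and Cdkn2c lie lower in both. With 2 libraries on each side, such a separation can arise without a genotype difference. The share of all genes that separate was not counted, so it is not read as a result about these 10. Cdk4 stays between 88.4 and 126 FPKM throughout.

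The comparison with replicates on both sides was Dusp2-/- against WT in CD44hi cells, which asks what loss of the phosphatase changes in the CD44hi fraction. With limma on log2(FPKM + 1), 26.7% of 9691 tested genes passed an adjusted p of 0.05, 12.9% higher and 13.8% lower in Dusp2-/- cells. Of the 10 G1 genes, 5 were higher (Ccnd2, Cdk6, Ccne1, Ccne2 and E2f1), 1 was lower (Cdkn1b) and 4 did not pass (Ccnd3, Cdk4, Cdk2 and Cdkn2c). The median log2 difference was 0.272 over the 10 genes and -0.018 over all tested genes. Without the filter on low values, 2 genes passed in all and none of the 10 did, and the 6 called genes then had adjusted p between 0.0622 and 0.082 (from 1.6e-09 to 0.107 over their alternatives).

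Among the D cyclins the difference lay in cyclin D2. Ccnd2, the cyclin that T cells raise on antigen receptor and cytokine signals, stood at 86.5 and 87.6 FPKM in Dusp2-/- CD44hi cells, against 44.6 and 41.6 FPKM in WT CD44hi cells. The means were 87.0 ± 0.808 and 43.1 ± 2.11 FPKM (SD, n = 2 each), a log2 difference of 1.00 (SE 0.065, limma adjusted p = 0.00076). Both Dusp2-/- libraries were far above both WT libraries, and both CD44lo libraries lay in the gap, with 61.5 FPKM in Dusp2-/- and 54.9 FPKM in WT. Ccnd3, the other D cyclin of lymphocytes, stood at 13.3 and 12.9 FPKM in Dusp2-/- CD44hi cells and at 11.0 and 11.9 FPKM in WT CD44hi cells. Its difference of 0.18 (SE 0.071, 95% interval 0.02 to 0.35) had an adjusted p of 0.099 and passed in 1 alternative of 15, without WT CD44hi replicate 2 (adjusted p = 0.037, range 0.037 to 0.46). Ccnd1, the D cyclin of many other tissues, was at 0.0402 to 0.188 FPKM in every library. The share of D cyclin FPKM taken by Ccnd2 was 86.5% and 87.1% in Dusp2-/- CD44hi cells and 80.1% and 77.6% in WT CD44hi cells, and the summed D cyclin level was 99.97 and 100.6 FPKM in Dusp2-/- against 55.6 and 53.6 FPKM in WT.

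Of the 2 kinases of the D cyclins, Cdk6 was higher. It stood at 18.9 and 20.0 FPKM in Dusp2-/- CD44hi cells, against 13.3 and 12.8 FPKM in WT CD44hi cells. The log2 difference was 0.54 (SE 0.068, adjusted p = 0.0041). Cdk4 stood at 115 and 121 FPKM in Dusp2-/- CD44hi cells and at 126 and 124 FPKM in WT CD44hi cells. Its difference was -0.08 (SE 0.065, adjusted p = 0.38), with a 95% interval of -0.24 to 0.07 that does not overlap that of Cdk6 (0.38 to 0.70). Cdk6 took 14.2% of the summed Cdk4 and Cdk6 FPKM in both Dusp2-/- CD44hi libraries, against 9.60% and 9.35% in the WT CD44hi libraries.

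Both E cyclins were higher. Ccne1 stood at 26.9 and 26.1 FPKM in Dusp2-/- CD44hi cells, against 18.5 and 19.2 FPKM in WT CD44hi cells, a log2 difference of 0.47 (SE 0.063, adjusted p = 0.0049). Ccne2, the less abundant E cyclin, stood at 5.95 and 6.40 FPKM in Dusp2-/- CD44hi cells, against 2.95 and 2.40 FPKM in WT CD44hi cells. Its difference of 0.97 (SE 0.106, adjusted p = 0.0028) was larger than that of Ccne1 on this scale, and its share of E cyclin FPKM was 18.1% and 19.7% in Dusp2-/- and 13.8% and 11.1% in WT.

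Cdk2, the kinase both E cyclins bind, did not pass the test. It stood at 15.4 and 15.7 FPKM in Dusp2-/- CD44hi cells and at 14.0 and 12.6 FPKM in WT CD44hi cells, and its difference of 0.21 (SE 0.075, 95% interval 0.03 to 0.39) had an adjusted p of 0.084. It passed without WT CD44hi replicate 1 (adjusted p = 0.016, range 0.016 to 0.37 over 15 alternatives). E2f1, which switches on E cyclin and DNA replication genes, stood at 24.7 and 23.8 FPKM in Dusp2-/- CD44hi cells, against 19.2 and 18.8 FPKM in WT CD44hi cells. Its difference was 0.34 (SE 0.063, adjusted p = 0.014). The call was lost without Dusp2-/- CD44hi replicate 1 (adjusted p = 0.107) and without Dusp2-/- CD44hi replicate 2 (adjusted p = 0.065), within a range of 0.0024 to 0.107 over 15 alternatives. E2f1 lies on chromosome 2, as Dusp2 does, and whether this has a part in the E2f1 difference was not tested.

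Cdkn1b was the member that fell. It stood at 5.97 and 4.98 FPKM in Dusp2-/- CD44hi cells, against 9.02 and 9.12 FPKM in WT CD44hi cells. The difference was -0.64 (SE 0.090, adjusted p = 0.0055). Cdkn2c, an INK4 inhibitor of CDK4 and CDK6, stood at 2.08 and 2.24 FPKM in Dusp2-/- CD44hi cells and at 2.60 and 3.16 FPKM in WT CD44hi cells. Its difference of -0.29 (SE 0.107, 95% interval -0.55 to -0.04) had an adjusted p of 0.086, and it passed without WT CD44hi replicate 1 (adjusted p = 0.021, range 0.021 to 0.38 over 14 alternatives).

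**Figure D2:**
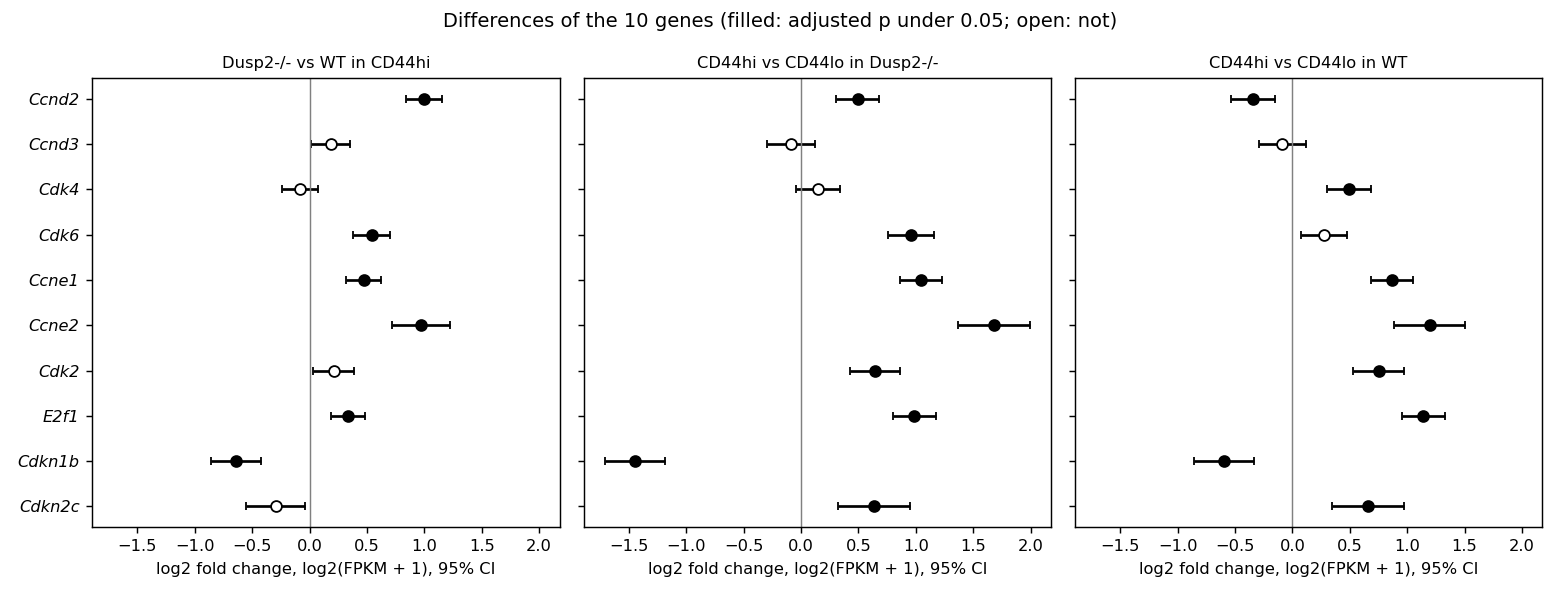
Log2 differences on the log2(FPKM + 1) scale with 95% intervals from limma for each of the 10 genes, with 1 panel each for Dusp2-/- minus WT in CD44hi, CD44hi minus CD44lo in Dusp2-/- and CD44hi minus CD44lo in WT; filled points passed an adjusted p of 0.05. Ccnd2 is at 1.00 for genotype in CD44hi cells and has opposite signs in the fraction panels (0.49 in Dusp2-/- and -0.34 in WT), and Cdkn1b is below 0 in every panel.

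Relatives of the 2 inhibitors were measured in the same libraries. Cdkn1a (p21) was at 5.57 and 5.20 FPKM in Dusp2-/- CD44hi cells, against 2.03 and 1.45 FPKM in WT CD44hi cells (log2 difference 1.23, SE 0.121, adjusted p = 0.0020), and Cdkn1c (p57) stayed at 0.104 to 0.226 FPKM. Cdkn1b made up 51.3% and 48.2% of CIP/KIP FPKM in Dusp2-/- CD44hi cells, against 80.6% and 84.6% in WT CD44hi cells. The summed CIP/KIP level was 11.6 and 10.3 FPKM in Dusp2-/- CD44hi cells and 11.2 and 10.8 FPKM in WT CD44hi cells, so the sums overlapped while their make-up did not. Among the INK4 genes, Cdkn2d (p19) was the most abundant, at 5.79 and 6.47 FPKM in Dusp2-/- CD44hi cells against 9.07 and 9.18 FPKM in WT CD44hi cells, a difference of -0.51 (SE 0.077, adjusted p = 0.0068). Cdkn2c took 25.9% and 25.5% of INK4 FPKM in Dusp2-/- CD44hi cells and 22.2% and 25.4% in WT CD44hi cells. Cdkn2a and Cdkn2b did not exceed 0.121 and 0.0762 FPKM in any library.

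**Figure D3:**
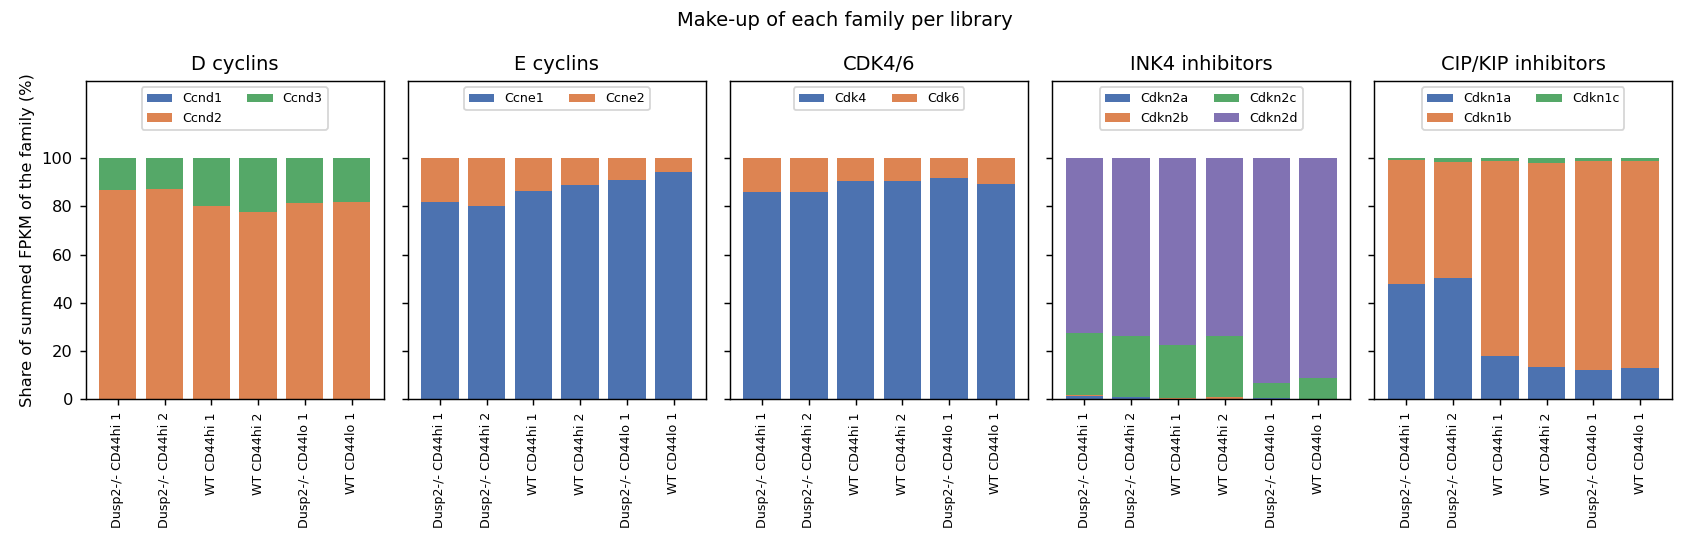
Share of each family's summed FPKM (%) taken by each gene, as stacked bars per library, for the D cyclins, E cyclins, CDK4 and CDK6, INK4 inhibitors and CIP/KIP inhibitors. In the CIP/KIP panel Cdkn1b takes 51.3% and 48.2% in the Dusp2-/- CD44hi libraries and 80.6% to 86.7% in the other 4.

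A list of 30 other genes of G1 control was read in the same fit, and 24 passed the filter (Ccnd1, Cdkn1c, Cdkn2a, Cdkn2b, E2f7 and Skp2 did not). In Dusp2-/- against WT CD44hi cells, 6 of the 24 were higher and 2 lower, with a median of 0.052. Beside these stood 12.9% higher and 13.8% lower among all tested genes, with a median of -0.018. The higher ones were Cdkn1a, the activating factors E2f2 and E2f3 (0.67 and 0.96), the repressive E2f8 (0.71, or 1.09 with voom), the E2F partner Tfdp1 (0.40) and Cdc25a (0.41), a phosphatase that activates CDK2. E2f3 stood at 6.58 and 6.99 FPKM in Dusp2-/- CD44hi cells, against 3.08 and 2.91 FPKM in WT CD44hi cells. The lower ones were Cdkn2d and Foxo1 (-0.35), a factor known to switch on Cdkn1b. The Cdc25a call was lost without Dusp2-/- CD44hi replicate 1 (adjusted p = 0.064) and the Foxo1 call without replicate 1 or replicate 2 of that group (adjusted p = 0.065 and 0.063), and without the filter none of the 8 passed. The pocket proteins did not pass as reported: Rb1 differed by 0.00 (SE 0.093, adjusted p = 0.99), Rbl1 by 0.22 (SE 0.073, adjusted p = 0.067) and Rbl2 by -0.23 (SE 0.080, adjusted p = 0.075). Rbl1 passed in 4 of 15 alternatives (adjusted p from 0.022 to 0.41) and Rbl2 in 3 of 14 (from 0.024 to 0.39).

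**Figure D4:**
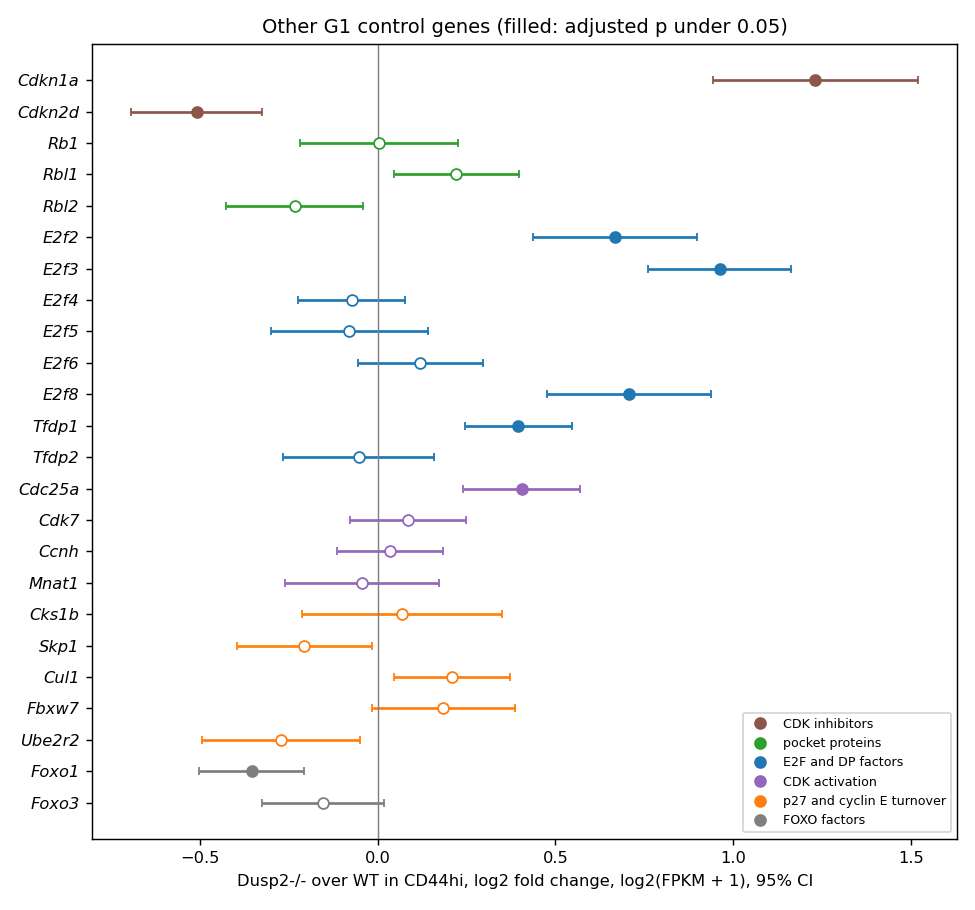
Log2 differences of Dusp2-/- minus WT in CD44hi cells with 95% intervals from limma for the 24 tested genes of the wider list, grouped by role; filled points passed an adjusted p of 0.05. Cdkn1a (1.23) and E2f3 (0.96) lie farthest to the right, Cdkn2d (-0.51) farthest to the left, and Rb1 sits at 0.00.

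The second question was how the CD44hi fraction differs from the CD44lo fraction of the same genotype. In Dusp2-/- cells, 40.1% of tested genes passed, 23.6% higher and 16.5% lower in CD44hi, and 8 of the 10 G1 genes did, 7 higher and 1 lower. In WT cells, 26.1% of tested genes passed, 15.4% higher and 10.7% lower, and again 8 of the 10, 6 higher and 2 lower. The median over the 10 genes was 0.641 in Dusp2-/- and 0.575 in WT, beside 0.048 in Dusp2-/- and 0.053 in WT over all tested genes. Each genotype has 1 CD44lo library, which was assumed to vary as the CD44hi pairs do.

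Ccne1, Ccne2, Cdk2 and E2f1 stood higher in CD44hi cells of both genotypes. Ccne2 was at 5.95 and 6.40 FPKM in Dusp2-/- CD44hi cells against 1.23 FPKM in Dusp2-/- CD44lo cells (log2 difference 1.68, SE 0.130, adjusted p = 0.00032). In WT it was at 2.95 and 2.40 FPKM in CD44hi cells against 0.601 FPKM in CD44lo cells (1.19, SE 0.130, adjusted p = 0.0014). The WT difference grew to 1.98 with a pseudocount of 0.1 and to 2.13 with voom on recovered reads. Ccne2 thus had its lowest value in WT CD44lo cells and its highest in Dusp2-/- CD44hi cells, with no overlap between the 4 groups. Ccne1 was at 12.3 FPKM in Dusp2-/- CD44lo cells and 9.86 FPKM in WT CD44lo cells, below all 4 CD44hi libraries, with differences of 1.04 in Dusp2-/- and 0.87 in WT. E2f1 was at 11.7 FPKM in Dusp2-/- CD44lo cells and 8.09 FPKM in WT CD44lo cells, with differences of 0.99 in Dusp2-/- and 1.14 in WT. Cdk2 was at 9.58 FPKM in Dusp2-/- CD44lo cells and 7.51 FPKM in WT CD44lo cells, with differences of 0.64 and 0.75. For these 3 genes the largest adjusted p was 0.0028 in Dusp2-/- and 0.0023 in WT.

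In the D cyclin arm, Ccnd2 had opposite signs in the 2 genotypes. It was higher in CD44hi than in CD44lo cells of Dusp2-/- mice (0.49, SE 0.079, adjusted p = 0.0043; 0.25 with the length trend removed) and lower in CD44hi than in CD44lo cells of WT mice (-0.34, SE 0.079, adjusted p = 0.022). The WT call was lost without the filter on low values (adjusted p = 0.073) and without Dusp2-/- CD44hi replicate 2 (adjusted p = 0.05002), within a range of 0.0052 to 0.073 over 14 alternatives. Cdk6 was at 9.52 FPKM in Dusp2-/- CD44lo cells and 10.6 FPKM in WT CD44lo cells, and its CD44hi difference was 0.96 in Dusp2-/- (SE 0.083, adjusted p = 0.00045) and 0.27 in WT (SE 0.083, adjusted p = 0.054). With the length trend removed the Dusp2-/- difference was 0.62 and still passed. The WT difference passed in 5 of 14 alternatives, with adjusted p from 0.025 to 0.13. Cdk4 was at 106 FPKM in Dusp2-/- CD44lo cells and 88.4 FPKM in WT CD44lo cells, with a difference of 0.15 in Dusp2-/- (SE 0.080, adjusted p = 0.18) and 0.49 in WT (SE 0.080, adjusted p = 0.0065). The Cdk4 difference in Dusp2-/- passed in 1 alternative, with each library rescaled to the same total (0.29, adjusted p = 0.024, range 0.024 to 0.64). Ccnd3 was at 14.0 FPKM in Dusp2-/- CD44lo cells and 12.2 FPKM in WT CD44lo cells, and its difference was -0.09 in each genotype (SE 0.087, 95% interval -0.30 to 0.12). In Dusp2-/- it was 0.04 with each library rescaled and passed only with the length trend removed (-0.32, adjusted p = 0.043, range 0.043 to 0.78 over 14 alternatives).

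The inhibitors went different ways. Cdkn1b was highest in CD44lo cells, at 16.6 FPKM in Dusp2-/- and 14.2 FPKM in WT, and was lower in CD44hi cells of both genotypes, with differences of -1.45 in Dusp2-/- (SE 0.111, adjusted p = 0.00030) and -0.60 in WT (SE 0.111, adjusted p = 0.010). Cdkn2c was lowest in CD44lo cells, at 1.03 FPKM in Dusp2-/- and 1.45 FPKM in WT, and was higher in CD44hi cells, by 0.64 in Dusp2-/- (adjusted p = 0.010) and 0.66 in WT (adjusted p = 0.014), with SE 0.131 in each, and by up to 1.06 in Dusp2-/- and 0.99 in WT with voom on recovered reads. Its relative Cdkn2d went the other way, with 15.2 FPKM in Dusp2-/- CD44lo cells and 15.5 FPKM in WT CD44lo cells, and differences of -1.19 in Dusp2-/- and -0.71 in WT. Cdkn1a, the relative of Cdkn1b, was at 2.32 FPKM in Dusp2-/- CD44lo cells and 2.13 FPKM in WT CD44lo cells. Its difference was 0.94 in Dusp2-/- (SE 0.148, limma adjusted p = 0.0039) and -0.20 in WT (SE 0.148, limma adjusted p = 0.34). The Dusp2-/- call of Cdkn1a was lost without the filter on low values (limma adjusted p = 0.067). The Cdkn2c share of INK4 FPKM was 22.2% to 25.9% in the 4 CD44hi libraries and 6.31% and 8.55% in the CD44lo libraries of Dusp2-/- and WT. Without the filter on low values the Cdkn2c call was lost in both genotypes (adjusted p = 0.079 in Dusp2-/- and 0.093 in WT) and the Cdkn1b call in WT (0.090). Over all alternatives, adjusted p for Cdkn2c ran from 0.0026 to 0.079 in Dusp2-/- and from 0.0044 to 0.093 in WT, and for Cdkn1b in WT from 0.0014 to 0.090.

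Of the wider list of 24 tested genes, 10 were higher and 2 lower in Dusp2-/- CD44hi against CD44lo cells, and 7 were higher and 2 lower in WT. Among all tested genes, 23.6% were higher and 16.5% lower in Dusp2-/-, and 15.4% higher and 10.7% lower in WT. Shared examples were E2f2 (1.31 in Dusp2-/- and 1.13 in WT), E2f3 (0.94 and 0.74), Cdc25a (0.83 and 0.67), Tfdp1 (0.71 and 0.89) and E2f8 (1.57 and 1.11). The CD44lo values of E2f8 rested on 32 reads in Dusp2-/- and 15 in WT, and the size of its difference depended on the scale. It reached 3.02 in Dusp2-/- and 3.16 in WT with a pseudocount of 0.1, and 3.44 in Dusp2-/- and 4.51 in WT with voom on recovered reads, so no order of the genotypes is read from it. E2f2 in WT reached 1.73 with voom. Tfdp2, another E2F partner, was higher in Dusp2-/- (0.47, adjusted p = 0.016), a call lost without Dusp2-/- CD44hi replicate 1 or 2 (adjusted p = 0.059 and 0.102) and with the length trend removed (0.14, adjusted p = 0.34), and 0.73 with each library rescaled. Cks1b, a cofactor in p27 turnover, was higher in both genotypes, by 0.59 in Dusp2-/- (adjusted p = 0.019, range 0.00096 to 0.15 over 14 alternatives) and 0.97 in WT (adjusted p = 0.0047). Rb1 was higher in WT (0.55, adjusted p = 0.015), with 0.33 in Dusp2-/- (adjusted p = 0.057), which passed in 3 of 13 alternatives, among them with each library rescaled (0.51, adjusted p = 0.023, range 0.023 to 0.32). Rbl2, the pocket protein of quiescent cells, was lower in WT (-0.49, adjusted p = 0.014), with -0.01 in Dusp2-/- (adjusted p = 0.96), and Rbl1 did not pass in Dusp2-/- (0.13) or in WT (-0.15). In the lone CD44lo libraries Rbl2 stood at 3.98 FPKM in Dusp2-/- and 7.17 FPKM in WT. The interaction of genotype and CD44 fraction did not pass for Rbl2 (0.48, SE 0.139, limma adjusted p = 0.089). The Cks1b calls in both genotypes, the WT calls of Rb1 and Rbl2 and the Tfdp2 call were lost without the filter on low values.

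In CD44lo cells, with 1 library of each genotype, differences were read without a test. None of the 10 genes was 1.5-fold or more apart between Dusp2-/- and WT on the log2(FPKM + 1) scale, where 2.96% of tested genes were higher and 3.98% lower by that much. That scale shrinks low genes, and in FPKM itself Ccne2 was 2.05-fold higher in Dusp2-/- CD44lo cells (1.23 FPKM from 103 reads) than in WT CD44lo cells (0.601 FPKM from 107 reads). The differences of Dusp2-/- minus WT were 0.49 for E2f1, 0.48 for Ccne2, 0.31 for Cdk2, 0.29 for Ccne1, 0.26 for Cdk4, 0.21 for Cdkn1b, 0.18 for Ccnd3, 0.16 for Ccnd2, -0.14 for Cdk6 and -0.27 for Cdkn2c. Of the 10, 8 were higher in Dusp2-/-, as were 48.4% of tested genes by any amount. Their median was 0.234, beside -0.011 over all tested genes.

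Whether the genotype difference itself differed between fractions was tested as an interaction, the difference in CD44hi minus that in CD44lo. It passed for 4.22% of tested genes, 2.73% higher and 1.49% lower, and for 3 of the 10 G1 genes. For Ccnd2 the genotype difference was 1.00 in CD44hi and 0.16 in CD44lo, an interaction of 0.84 (SE 0.112, adjusted p = 0.031). With the length trend removed, the Ccnd2 interaction was 0.59, with a CD44lo difference of 0.33 in place of 0.16. For Cdk6 the genotype difference was 0.54 in CD44hi and -0.14 in CD44lo, an interaction of 0.68 (SE 0.118, adjusted p = 0.041). For Cdkn1b it was -0.64 in CD44hi and 0.21 in CD44lo, an interaction of -0.85 (SE 0.156, adjusted p = 0.044). The Ccnd2 call was lost in 1 of 13 alternatives, without the filter (adjusted p = 0.11, range 0.00023 to 0.11). The Cdk6 call was lost in 4 of 13, without the filter (0.12), without the variance trend (0.058), with the length trend removed (interaction 0.30, adjusted p = 0.18, with a CD44lo difference of 0.11 in place of -0.14) and without Dusp2-/- CD44hi replicate 2 (0.063), in a range of 0.0025 to 0.18. The Cdkn1b call was lost in 3 of 13, without the filter (0.15), with each library rescaled to the same total (0.062) and without the variance trend (0.060), in a range of 0.00098 to 0.15. Each of these 3 interactions rests on 1 CD44lo library per genotype, the Dusp2-/- one being the shallowest.

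The other 7 genes did not pass. The interaction was 0.49 for Ccne2 (95% interval 0.05 to 0.93), -0.34 for Cdk4 (-0.61 to -0.07), 0.18 for Ccne1 (-0.09 to 0.44), -0.15 for E2f1 (-0.41 to 0.11), -0.11 for Cdk2 (-0.42 to 0.21), -0.02 for Cdkn2c (-0.46 to 0.42) and 0.00 for Ccnd3 (-0.29 to 0.29). For Ccne2 and Cdk4 these intervals, which are not adjusted for the number of genes, leave out 0, with adjusted p of 0.15 and 0.11. Ccne2 passed without WT CD44hi replicate 1 (adjusted p = 0.025, range 0.025 to 0.79 over 12 alternatives) and was 0.25 with a pseudocount of 0.1, and Cdk4 passed without WT CD44hi replicate 1 or 2 (adjusted p = 0.034 and 0.044, range 0.034 to 0.46 over 13). In the wider list 1 of 24 genes passed, beside 4.22% of all tested genes. That gene was Cdkn1a (1.15, limma adjusted p = 0.044), which did not pass without the filter (0.16) or without the variance trend (0.054).

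**Figure D5:**
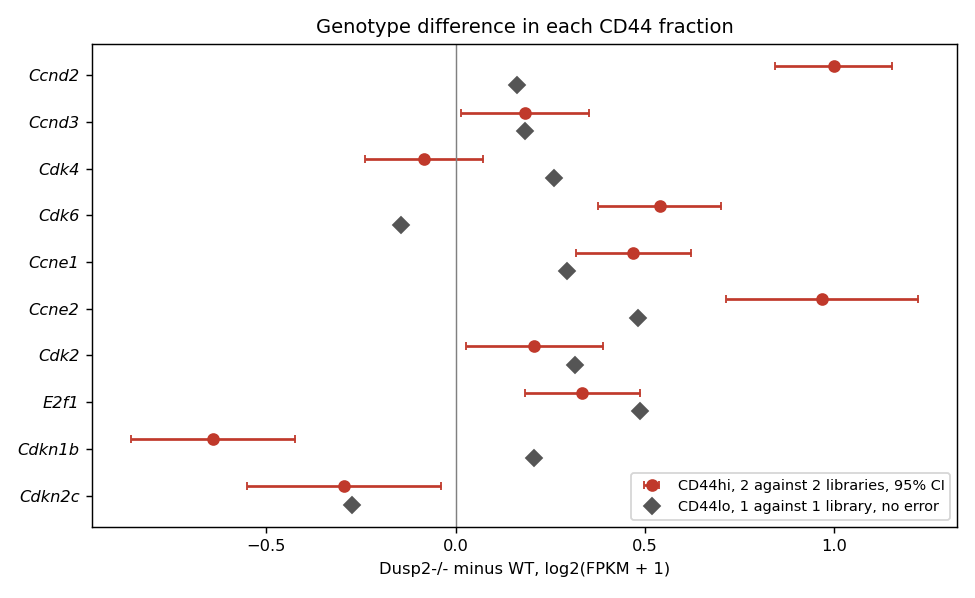
Log2 difference of Dusp2-/- minus WT on the log2(FPKM + 1) scale for the 10 genes, in CD44hi cells (2 against 2 libraries) and in CD44lo cells (1 against 1, no error). The 2 points lie farthest apart for Cdkn1b, Ccnd2 and Cdk6 (interactions of -0.85, 0.84 and 0.68) and coincide for Ccnd3 (0.18 in both).

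Some features of the libraries moved with these comparisons. Log2 differences between genotypes correlated with gene length across the 9691 genes, with a Spearman coefficient of 0.267 in CD44hi and -0.329 in CD44lo, and the CD44hi against CD44lo difference did so with 0.336 in Dusp2-/- and -0.091 in WT; genes are not independent replicates, and these are descriptions. With the length trend removed, the 6 calls between genotypes in CD44hi cells remained. The B cell marker Cd79b stood at 22.4 and 24.5 FPKM in Dusp2-/- CD44hi cells, against 12.2 and 9.88 FPKM in WT CD44hi cells, while Cd79a did not exceed 0.379 FPKM in any library. The mitochondrial share of reads was higher in Dusp2-/- than in WT in both fractions. The part of either in these differences was not tested. Several members share their locus with another gene in RefSeq, and the sources used here do not state whether the counting used strand. Ccne2 overlaps Ints8, which stood at 8.13 and 8.43 FPKM in Dusp2-/- CD44hi cells and 6.99 and 6.53 FPKM in WT CD44hi cells. Ccnd3 overlaps Bysl (31.6 to 37.1 FPKM) and Cdk4 overlaps Tspan31 (13.6 to 21.6 FPKM), while the measured partners of Ccnd2, Cdk2 and E2f1 did not exceed 1.34 FPKM.

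The genes whose pattern was nearest to a member's were sought for the 3 members with the largest range of group means, Ccne2, E2f1 and Cdkn1b, as the smallest root mean square distance between centred log2(FPKM + 1) values over the 6 libraries, among 6420 genes averaging 5 FPKM or more. Nearest to Ccne2 were Heg1 (0.0855), Fbxo5 (0.0903) and Cep55 (0.114). Fbxo5, which codes for an inhibitor of the anaphase-promoting complex, stood at 13.5 and 15.0 FPKM in Dusp2-/- CD44hi cells, 8.30 and 6.69 FPKM in WT CD44hi cells, 3.37 FPKM in Dusp2-/- CD44lo cells and 2.67 FPKM in WT CD44lo cells. Nearest to E2f1 were Ncaph (0.040), a condensin subunit, Kifc1 (0.0502), a spindle motor, and Mdfic (0.0515). Nearest to Cdkn1b were Rnf167 (0.104), Oas1b (0.115) and Il16 (0.117), all at their highest in the CD44lo libraries. With 6 libraries in 4 groups, many genes can share a pattern, and the distances are given as descriptions.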

How the data were processed

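RNA-seq of 6 libraries was deposited by the authors as 1 table of FPKM per gene, which divides by gene length and library size. The submitters' processing notes list HISAT2 2.0.5 and, giving no role, both mm39 and hg38; the sources used here do not state the counter, annotation or strandedness. Groups came from the sample titles, and 0 value columns were left unused. The labels also name 10X Genomics, but each column holds 1 value per gene for a whole library. The members and lists were chosen with earlier results of these data known.

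FPKM values entered limma 3.58.1 in R 4.3.3 as log2(FPKM + 1) (pseudocount 1, understating changes of low genes), for the 9691 genes averaging 1 FPKM or more across all 6 libraries, with 1 coefficient per group, a variance trend and Benjamini-Hochberg adjustment over all tested genes, called under 0.05, two-sided. Residual degrees of freedom were 2, both given by the CD44hi pairs, and prior ones 4.64. All 10 members passed the filter. For all 16220 rows above 0 in 2 or more libraries, values were found to be whole multiples of 1 read (within 1e-06 reads). This gave read totals, gene lengths and the voom alternative. Of 200 perturbed control rows 0 did so, but these were searched over a far narrower range of multiples than the real rows. The control therefore cannot show how often such a multiple is found by chance. The script was tested on simulated data, with independent noise of the fitted size around a mean shared by all libraries. Such data cannot show how the lone CD44lo libraries, the length trend or the scaling affect the calls.

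Named were the 10 members, Ccnd1, the relatives of the inhibitors, the pocket proteins, up to 6 others of the 30-gene list per comparison with the smallest p past the threshold, the checks, and the 3 nearest genes by pattern for 3 members. Ube2r2, Foxo3 and the rest of the list are counted only. Promoters came from RefSeq on GRCm38.p6, used for sequence, chromosome and overlap only. Alternatives were a pseudocount of 0.1, no filter, a 5 FPKM minimum, median-ratio scaling, rescaling to 1000000, no variance trend, a replicate block, voom on recovered reads, removal of a length trend (loess, span 0.5) and each library left out.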

Additional observations from a re-analysis of the deposited data

Results flagged for a closer look

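For 3 of the 10 genes the difference between Dusp2-/- and WT passed as unlike in the CD44hi and CD44lo fractions, by the limma interaction term on log2(FPKM + 1). That term passed for 4.22% of all tested genes. Without the filter on low values it passed for 0 of the 10. The Cdkn1b call was also lost with each library rescaled to the same total and without the variance trend. The interaction was 0.84 for Ccnd2 (adjusted p = 0.031), 0.68 for Cdk6 (adjusted p = 0.041) and -0.85 for Cdkn1b (adjusted p = 0.044). The genotype difference of Cdkn1b had opposite signs, -0.64 in CD44hi and 0.21 in CD44lo, and that of Ccnd2 was larger in CD44hi (1.00) than in CD44lo (0.16). With the length trend removed, the Ccnd2 difference was 0.92 in CD44hi and 0.33 in CD44lo. The Cdk6 difference was 0.54 in CD44hi and -0.14 in CD44lo, but with the length trend removed it was 0.41 in CD44hi and 0.11 in CD44lo, with an interaction of 0.30 (adjusted p = 0.18, range 0.0025 to 0.18 over 13 alternatives). The CD44lo fraction holds 1 library per genotype. No group had 4 or more libraries, so no library was tested for standing apart from its group.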

How the results depend on the processing

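Without the filter on low values, calls between genotypes in CD44hi cells came to 0 of the 10 genes (2 of all genes), those between fractions in WT to 5 (1170), those between fractions in Dusp2-/- to 2085 of all genes, and interaction calls to 0 (39); limma then adjusted over all rows and fitted the trend through the low ones. Interaction calls came to 1 member and 117 genes without the variance trend and to 238 genes with the length trend removed. With each library left out in turn, calls over all genes ran from 1077 to 4105 between genotypes in CD44hi, 2158 to 3815 between fractions in WT, 2505 to 5505 between fractions in Dusp2-/- and 348 to 3067 for the interaction, and interaction calls among the members from 2 to 5. The cause was not tested. Deviations of CD44hi libraries with the same replicate number correlated at 0.022 across genes. With 2 pairs this cannot show whether such libraries shared a day or culture. With the number as a replicate block, 6, 8, 8 and 3 members passed in the 4 comparisons and 3326, 2915, 4378 and 1565 genes. Rbl1 then passed between genotypes in CD44hi (limma adjusted p = 0.048, against 0.067 in the values reported). Rescaling to a common total changed the split of higher to lower genes to 1292 and 914 between genotypes (1248 and 1338 in the values reported), 3154 and 969 between fractions in Dusp2-/- (2285 and 1603) and 379 and 43 for the interaction (265 and 144), with median log2 differences over all genes of 0.184 and 0.133 in the last 2 comparisons (0.048 and -0.008 as reported); median-ratio scaling gave 1253 and 1318 between fractions in WT (1490 and 1037).

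Among the named genes, signs reversed only for differences that were not called. The Cdkn2c interaction was 0.0655 with a pseudocount of 0.1, 0.154 rescaled, 0.0678 with voom, 0.0988 without the length trend and -0.124 to 0.0841 with a library left out. The Ccnd3 interaction was -0.002 with median-ratio scaling, -0.221 without the length trend and -0.051 to 0.051 with a library left out, and Ccnd3 between fractions in Dusp2-/- was 0.0434 rescaled. The Cdk2 interaction was 0.0272 rescaled. Rbl2 between fractions in Dusp2-/- was 0.120 rescaled, 0.0227 with the block and -0.0232 to 0.0079 with a library left out. Rb1 between genotypes was -0.002 with voom, -0.0251 without the length trend and -0.0785 to 0.0846 with a library left out, and Rbl1 between fractions in Dusp2-/- was -0.0133 without the length trend.

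Counted in recovered reads instead of FPKM, mean family shares over the 4 CD44hi libraries were 80.4% for Ccne1, 19.6% for Ccne2, 63.7% for Cdk4, 36.3% for Cdk6, 36.0% for Cdkn2c and 71.3% for Cdkn1b, since reads are not divided by length. Among the 10 genes depth limits Ccne2 and Cdkn2c most, with 103 and 66 reads in the Dusp2-/- CD44lo library, and among the other named genes E2f8 had 32 reads there and 15 in the WT CD44lo library.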
